A study of Gossypium hirsutum with 6 samples.

Results

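Putrescine is made in plants by 2 routes, and 6 genes for the steps that finish these routes are described here in *G. hirsutum* ovules cultured with putrescine (Put) or with water (CK). The genes were taken by a set list of identifiers from the 100562 listed genes and comprise 2 described as agmatine deiminase, 2 as N-carbamoylputrescine amidase, 1 as N-carbamoylputrescine amidase-like and 1 as ornithine decarboxylase. Another gene with the description ornithine decarboxylase, LOC107926754, was not on that list and is given beside the listed one below. RNA-seq was performed on wild type ovules of the line ZM24 that were collected on the day of flowering and kept for 2 d in the dark, with 10 μmol/L Put in 3 samples and with water in 3 samples. The study states that collected ovules were divided at random into replicates, and no source says that the samples came from separate plants, so the p-values measure only the spread between these samples, which may be technical.

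In the route through arginine, arginine decarboxylase makes agmatine, agmatine deiminase converts agmatine to N-carbamoylputrescine, and N-carbamoylputrescine amidase releases putrescine. In the shorter route, ornithine decarboxylase makes putrescine from ornithine directly. *Arabidopsis* lacks a gene for ornithine decarboxylase and relies on the arginine route, whereas most other plants carry both. Putrescine is then extended to spermidine and spermine, or oxidized by amine oxidases. Upland cotton is an allotetraploid. Its A and D subgenomes each tend to carry their own version of a gene, and the corresponding versions are called homeologs.

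The counts of a sample summed to between 16974557 and 18454734 with Put, and to between 19131678 and 19463059 with CK. Libraries of the same condition varied more than counting noise alone, by a factor of 1.72 to 1.85 in variance, so no library was a copy of another. The 4 genes described as AGL11, a MADS-box factor of ovule identity, summed to between 440 and 450 CPM (counts scaled to the TMM-normalized library size) with Put and to between 403 and 407 CPM with CK. The 6 genes for the fiber protein E6 summed to between 6032 and 6170 CPM with Put, against between 1286 and 1338 CPM with CK, with 4 of them higher and 2 lower. The 5 genes of the ovule integument (BEL1 and INNER NO OUTER) summed to between 53.2 and 56.2 CPM with Put and to between 73.5 and 82.5 CPM with CK, and no listed gene of either kind was at 0 throughout. The Rubisco small chain genes of leaves summed to between 59.6 and 64.4 CPM with Put and to between 69.2 and 70.6 CPM with CK. Ovule and fiber genes thus moved with the treatment, not all in 1 direction, and their part in the results below was not tested. In ovules sequenced whole, fewer cells of a type and less RNA per cell cannot be told apart.

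The 6 genes lie on 6 chromosomes of the Gossypium_hirsutum_v2.1 assembly, and none of them overlaps another listed gene. The agmatine deiminase genes are LOC107926587 on A07, from 7684974 to 7689483, and LOC107953355 on D07, from 7021287 to 7025676, both on the plus strand. They are the only 2 genes of the files that list the domain of peptidyl-arginine deiminases, the fold that agmatine deiminase shares. The N-carbamoylputrescine amidase genes are LOC107889178 on A09, from 65723487 to 65728185, and LOC107891527 on D09, from 38139576 to 38144090, both on the minus strand and both with a carbon-nitrogen hydrolase domain. LOC107888839, the ornithine decarboxylase gene, lies on A11 from 109146201 to 109147679 on the plus strand. Its annotated length of 1479 bp equals its span, so that it has no annotated intron, whereas the other 5 genes span between 3295 and 4699 bp with lengths of 1000 to 1618 bp. The gene described as N-carbamoylputrescine amidase-like, LOC107939462 on D13 from 63957429 to 63960723, lists no hydrolase domain, and its protein match is FLX-like 2, a relative of the *Arabidopsis* flowering protein FLX. The description and the match of LOC107939462 disagree, so it is given separately below and not counted as an amidase.

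Levels of different genes were compared as FPKM, the deposited values per length. With Put, LOC107953355 had the highest level at 33.2 ± 0.337 FPKM (SD, n = 3), followed by LOC107889178 at 13.2 ± 1.59, LOC107891527 at 8.35 ± 0.387, LOC107939462 at 5.41 ± 0.439, LOC107888839 at 4.37 ± 0.285 and LOC107926587 at 3.84 ± 0.580 FPKM. With CK, the first 3 genes kept their order, at 18.0 ± 1.31, 11.1 ± 0.239 and 8.01 ± 0.583 FPKM, whereas LOC107926587 came next at 6.42 ± 0.369, before LOC107888839 at 4.60 ± 0.588 and LOC107939462 at 4.46 ± 0.254 FPKM. Neighbours in these orders overlapped between samples only for LOC107888839 and LOC107926587 with Put, and for LOC107888839 and LOC107939462 with CK. The agmatine deiminase copy of the A subgenome was thus the lowest of the 6 genes on average with Put, and the copy of the D subgenome the highest in both conditions.

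**Figure D1:**
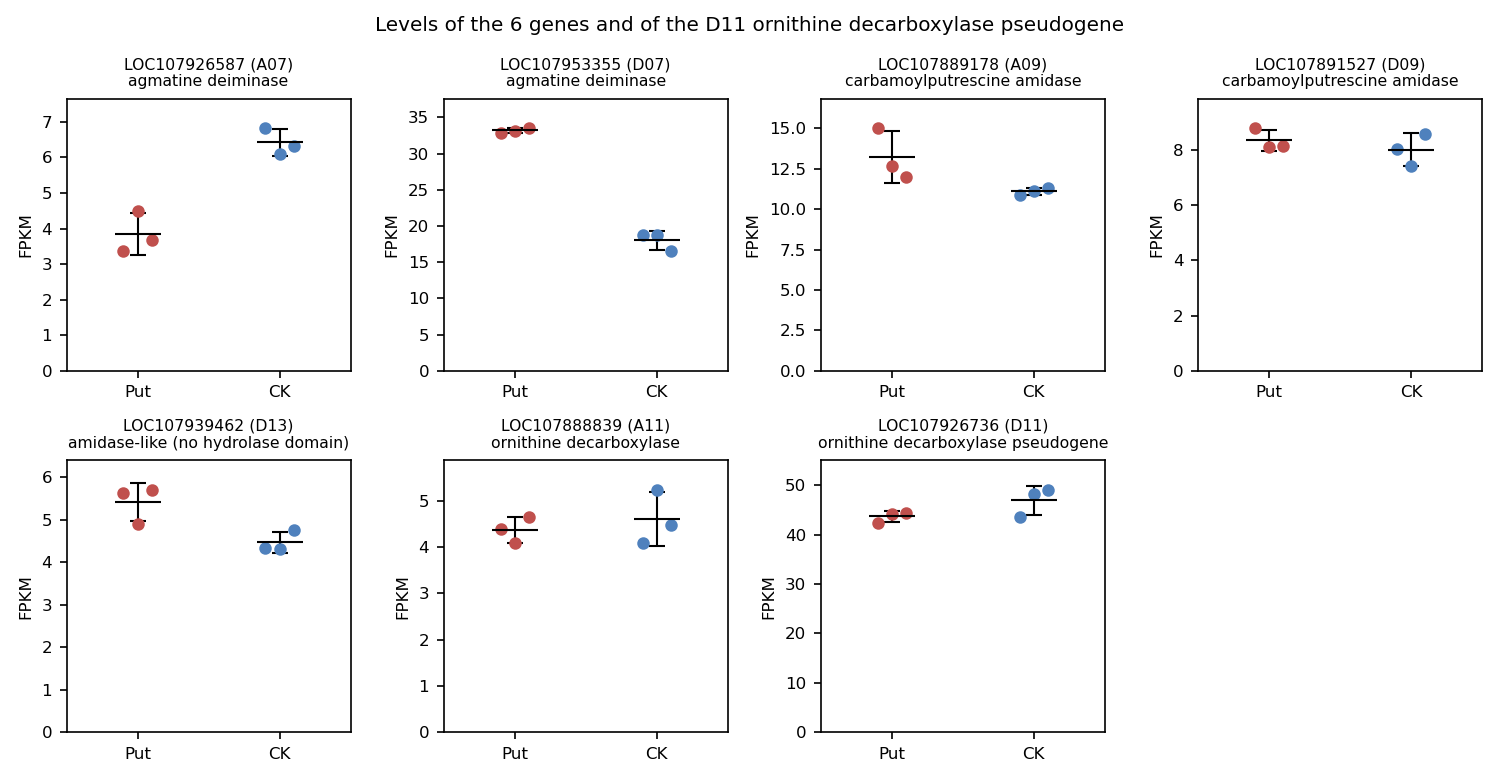
FPKM of the 6 genes and of the ornithine decarboxylase pseudogene LOC107926736 in each Put (red) and CK (blue) sample, with a black line at the mean and bars of 1 SD (n = 3), on axes that start at 0 and differ between panels. The agmatine deiminase copies moved in opposite directions, with LOC107926587 at 3.84 and LOC107953355 at 33.2 FPKM with Put, against 6.42 and 18.0 FPKM with CK.

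To learn which of the steps differed between Put and CK, the quasi-likelihood test of edgeR was applied to the counts of all genes, and a gene was called at a Benjamini-Hochberg adjusted p under 0.05 over the 51764 tested genes. All 6 genes were tested, and 2 were higher, 1 was lower and 3 were not called. Among all tested genes 18.4% were called higher with Put and 18.2% lower, 36.6% in total, so that 3 calls among 6 genes is near what this comparison gives for any gene. The median log2 fold change of Put over CK was 0.16 over the 6 genes and 8.8e-04 over all tested genes. The CPM values of Put and CK did not overlap in 4 of the 6 genes, and in 45.4% of all tested genes.

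The 2 agmatine deiminase genes were called in opposite directions. LOC107926587 on A07 had 100, 123 and 102 counts with Put and 214, 195 and 198 counts with CK, which are 5.49, 7.32 and 5.98 CPM with Put and 11.1, 9.94 and 10.3 CPM with CK. Every Put sample lay under every CK sample, and the log2 fold change was -0.74 (standard error 0.12, adjusted p = 2.38e-06, edgeR), so that the level with Put was 0.598 times that with CK (95% confidence interval 0.503 to 0.712). LOC107953355 on D07 had 931, 868 and 890 counts with Put and 563, 574 and 494 with CK, which are 51.1, 51.6 and 52.2 CPM with Put and 29.2, 29.3 and 25.7 CPM with CK. Every Put sample lay above every CK sample, and the level with Put was 1.84 times that with CK (log2 fold change 0.88, 95% confidence interval 0.76 to 0.997, adjusted p = 1.01e-18, edgeR). Of all tested genes, 95.2% had a lower log2 fold change than LOC107953355, and 3.83% a lower one than LOC107926587. Both calls held without any one of the 6 samples, with log2 fold changes from -0.87 to -0.65 for LOC107926587 and from 0.82 to 0.91 for LOC107953355.

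The sources do not state how reads that match both homeologs were assigned, so counts could have been exchanged between the 2 copies. The part of such an exchange in the values of either copy was not tested. The sum of both copies was 1031, 991 and 992 counts with Put and 777, 769 and 692 counts with CK, or 57.9 ± 1.19 CPM with Put and 38.5 ± 2.27 CPM with CK (SD, n = 3). With the copies summed in the table of all genes, agmatine deiminase was higher with Put, with a log2 fold change of 0.59 (95% confidence interval 0.48 to 0.69, adjusted p = 6.58e-14, edgeR). In CPM, the D07 copy differed more than the A07 copy, at 51.7 ± 0.527 with Put and 28.1 ± 2.06 with CK, against 6.26 ± 0.945 with Put and 10.4 ± 0.602 with CK for the A07 copy (SD, n = 3).

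The balance between the copies shifted toward the D subgenome. LOC107926587 held 9.70%, 12.4% and 10.3% of the counts of the pair in the Put samples, against 27.5%, 25.4% and 28.6% in the CK samples. The Wilson 95% confidence intervals of these shares, which cover counting error only, ended at 14.6% or lower with Put and began at 22.4% or higher with CK. The difference was -16.4 percentage points (exact permutation test over the 6 samples, two-sided p = 0.1, which is as low as this design can reach). The log2 ratio of the A07 to the D07 copy in CPM was -3.05 with Put and -1.42 with CK.

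**Figure D2:**
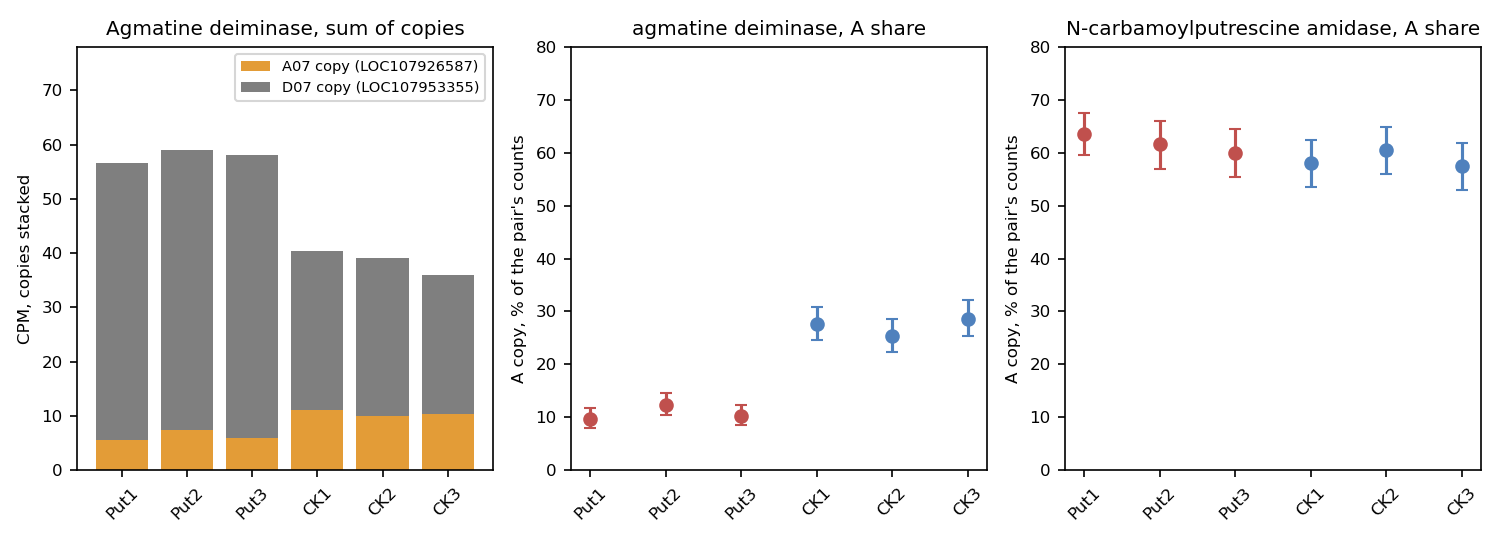
Left, CPM of the A07 and D07 agmatine deiminase copies stacked for each sample; middle and right, the share of the A copy in the counts of the agmatine deiminase and N-carbamoylputrescine amidase pairs, with Wilson 95% confidence intervals, in Put (red) and CK (blue) samples. The agmatine deiminase share averaged 10.8% with Put and 27.2% with CK, and the amidase share 61.8% with Put and 58.7% with CK.

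Whether the copies sit in matching surroundings was checked with the 10 nearest coding genes or pseudogenes on each side. Around the agmatine deiminase copies, 11 gene descriptions were found on both chromosomes, of 13 near the A07 copy and 14 near the D07 copy, so the 2 regions correspond in gene content. Of 9 neighbours that could be matched one to one, 6 were tested on both chromosomes. Of these, 2 were called higher on both, 1 was called lower on both and 0 were called in opposite directions. The others were not called on both chromosomes, so they could not count as opposite. The share of opposite calls over all homeolog pairs was not determined here. The genes for ASC1-like protein 1, a ceramide synthase relative, were both higher with Put, with log2 fold changes of 0.48 for LOC107926687 on A07 and 0.50 for LOC107953354 on D07. The genes described as disease resistance protein RPS2 were both lower, at -0.74 for LOC107926712 on A07 and -0.70 for LOC107953352 on D07, and the DOF5.4 transcription factor genes were both higher, at 0.73 for LOC107926584 and 0.47 for LOC107953344. The gene next to the copies on one side, for serine/threonine-protein kinase 16, had 0.03 on A07 (LOC107926689, adjusted p = 0.789, edgeR) and was higher on D07 at 0.27 (LOC107953353, adjusted p = 7.44e-04, edgeR). The 12 tested neighbours on D07 ranged from -0.70 to 0.50, all lower than the agmatine deiminase copy among them. The 14 tested neighbours on A07 ranged from -1.51 to 1.71, and 2 of them were lower than the copy among them, both described as STRICTOSIDINE SYNTHASE-LIKE proteins.

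**Figure D3:**
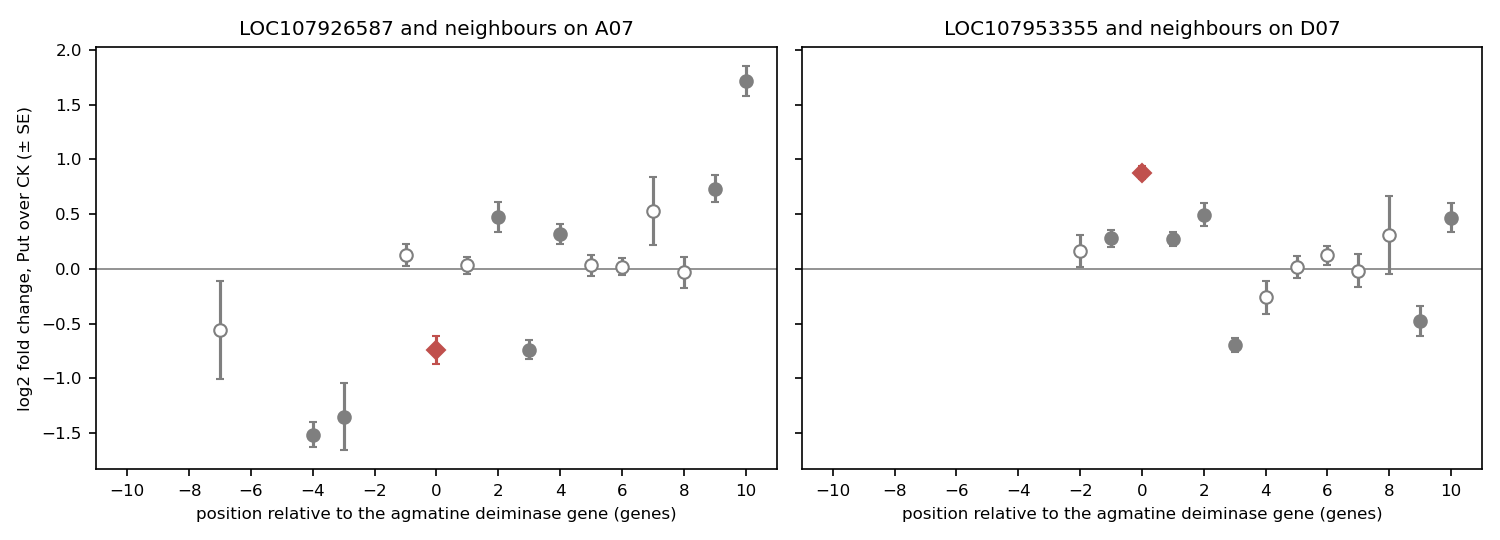
Log2 fold change of Put over CK (bars, standard error) of the agmatine deiminase copies (red diamonds) and of their tested neighbours (circles, filled at an adjusted p under 0.05), by position in genes from the copy, on A07 (left) and D07 (right). The copy on A07 was at -0.74 and the copy on D07 at 0.88, above all 12 tested neighbours on D07.

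N-carbamoylputrescine amidase differed less. LOC107889178 on A09 had 348, 271 and 260 counts with Put and 266, 277 and 277 counts with CK, which are 19.1, 16.1 and 15.2 CPM with Put and 13.8, 14.1 and 14.4 CPM with CK. The values did not overlap, although the lowest Put sample lay close to the highest CK sample and the first Put sample stood above the other 2. The log2 fold change was 0.26 (standard error 0.09, adjusted p = 0.0225, edgeR), a level 1.20 times that with CK (95% confidence interval 1.05 to 1.36). This call was lost without Put replicate 1 (0.15, adjusted p = 0.264, edgeR), without CK replicate 1 (0.24, adjusted p = 0.0647, edgeR), with DESeq2 (0.25, adjusted p = 0.0616) and with offsets that follow gene length (0.19, adjusted p = 0.0979, edgeR). Longer genes tended to have lower log2 fold changes (Spearman's rho = -0.239 over the tested genes, which do not count as replicates). The 14266 tested genes within the length range of these 6 had a median log2 fold change of 0.05.

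LOC107891527 on D09, the other amidase copy, had 199, 169 and 173 counts with Put and 192, 181 and 205 with CK. Its CPM values overlapped, at 10.9, 10.1 and 10.1 CPM with Put and 9.97, 9.22 and 10.7 CPM with CK. The log2 fold change was 0.06 (95% confidence interval -0.16 to 0.28, adjusted p = 0.701, edgeR), and its sign turned with offsets that follow gene length (-0.0055). Both copies summed had 547, 440 and 433 counts with Put and 458, 458 and 482 with CK, and a 1.13-fold higher level with Put (95% confidence interval 1.03 to 1.25, adjusted p = 0.0431, edgeR). The sum was not called without Put replicate 1 (log2 fold change 0.10 in place of 0.18), without CK replicate 1 (0.17), without CK replicate 2 (0.16) or with DESeq2 (0.18, adjusted p = 0.106).

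The A copy held 63.6%, 61.6% and 60.0% of the amidase counts in the Put samples and 58.1%, 60.5% and 57.5% in the CK samples. These shares overlapped between the conditions and differed by 3.08 percentage points (exact permutation test, two-sided p = 0.2). The A copy was thus the larger one in both conditions, opposite to agmatine deiminase. Among the 20 neighbours of each amidase copy, 12 descriptions occurred on both chromosomes, of 15 on A09 and 14 on D09.

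LOC107939462, described as amidase-like but matched to FLX-like 2, had 103, 83 and 98 counts with Put and 84, 85 and 92 with CK. In CPM the values were 5.66, 4.94 and 5.75 with Put and 4.36, 4.33 and 4.78 with CK, without overlap but with a narrow gap. The log2 fold change of 0.28 did not pass the test (95% confidence interval -0.03 to 0.59, adjusted p = 0.157, edgeR). Of 13 other genes with the same protein match, 6 are described as FLX-like 2. Of the 13, 12 were tested, and 1 was higher and 0 were lower with Put. The higher one, LOC107914100 on D05, is annotated as a long non-coding RNA and averaged 1.52 CPM.

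Ornithine decarboxylase, the enzyme of the other route, was not called. LOC107888839 had 119, 102 and 118 counts with Put and 117, 153 and 128 with CK, which are 6.54, 6.07 and 6.92 CPM with Put and 6.07, 7.80 and 6.65 CPM with CK. The groups overlapped, and the log2 fold change was -0.07 (95% confidence interval -0.34 to 0.20, adjusted p = 0.724, edgeR), with a sign that turned without CK replicate 2 (0.035). In fold terms the interval ran from 0.788 to 1.15, and changes within these bounds remain compatible with the data.

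Other loci resemble ornithine decarboxylase, and they were looked up after the counts of LOC107888839 had been seen. LOC107926736 on D11, from 58930694 to 58932144, is annotated as a pseudogene, but lists the protein match and both domains of ornithine decarboxylase. It had 1128, 1086 and 1108 counts with Put and 1225, 1381 and 1378 with CK, and its FPKM averaged 43.7 ± 1.13 with Put and 46.9 ± 2.98 with CK (SD, n = 3), above that of LOC107888839 in every sample. Its log2 fold change was -0.10 (standard error 0.05, adjusted p = 0.0773, edgeR), which did not pass. The surroundings of LOC107888839 and LOC107926736 shared 10 gene descriptions, of 11 on A11 and 15 on D11, and both lie beside a gene for protein NDL1. Another pair of loci described as ornithine decarboxylase was nearly silent, with 1, 0 and 0 counts with Put and 0, 2 and 0 counts with CK at LOC107926754 on D11, and 0 counts in all 6 samples at LOC107888902 on A11. No sample reached 3 counts there, the floor set for detection. Most counts at ornithine decarboxylase loci therefore lay on a locus annotated as a pseudogene, and reads of LOC107888839 and LOC107926736 could also have been exchanged.

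**Figure D4:**
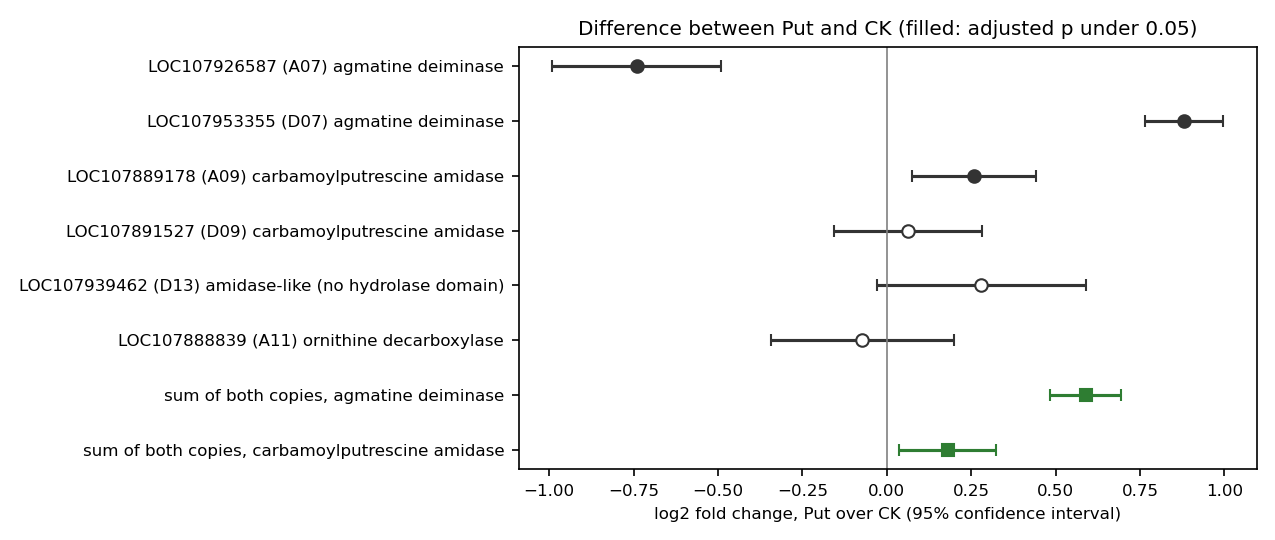
Log2 fold change of Put over CK with 95% confidence intervals for each of the 6 genes (circles) and for the sums of both copies (squares), filled at an adjusted p under 0.05. Agmatine deiminase had -0.74 on A07, 0.88 on D07 and 0.59 in the sum, whereas the interval of ornithine decarboxylase, -0.34 to 0.20, included 0.

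Whether the enzymes differed from each other was compared within each sample, with FPKM summed over the listed copies of an enzyme. For ornithine decarboxylase this was LOC107888839 alone, without the pseudogene LOC107926736. That pseudogene, at 43.7 FPKM with Put and 46.9 FPKM with CK, lay above the agmatine deiminase sum in every sample. The ratios to ornithine decarboxylase below therefore hold for LOC107888839 only. Agmatine deiminase summed to 36.2, 37.7 and 37.2 FPKM in the Put samples and to 25.6, 24.9 and 22.9 FPKM in the CK samples, and N-carbamoylputrescine amidase to 21.6 ± 1.97 FPKM with Put and 19.1 ± 0.729 FPKM with CK (SD, n = 3). The log2 ratio of agmatine deiminase to ornithine decarboxylase averaged 3.09 ± 0.109 with Put and 2.42 ± 0.208 with CK (SD, n = 3), a difference of 0.67 without overlap. The log2 ratio of N-carbamoylputrescine amidase to agmatine deiminase was -0.61, -0.86 and -0.89 with Put and -0.44, -0.43 and -0.20 with CK, a difference of -0.43 without overlap. That of N-carbamoylputrescine amidase to ornithine decarboxylase differed by 0.24 with overlapping values, and by 0.12 without CK replicate 2. The exact permutation test gave two-sided p = 0.1, 0.1 and 0.3 for these 3 ratios, and 0.15, 0.15 and 0.3 after adjustment over them, where 0.1 is the smallest p that the design allows before adjustment.

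The other genes of arginine, ornithine and polyamine metabolism were taken by their descriptions, 102 in 12 groups, of which 86 were tested. Of these, 17 were higher with Put, 23 were lower and 46 were not called, or 19.8% higher and 26.7% lower against 18.4% and 18.2% of all tested genes, with a median log2 fold change of -0.06. Upstream of the agmatine steps, 5 of 6 tested arginine decarboxylase genes were lower and 0 higher, led by LOC107893794 on A13 at -0.45 (log2 fold change, adjusted p = 3.37e-21, edgeR). As these genes were taken by description, they include LOC107907525 on A05, which lists a domain that LOC107893794 does not. Genes with both domains of LOC107893794 include LOC107919776 at -0.39, LOC121214859 at -0.34 and LOC107927929, not called at -0.03. The FPKM of the arginine decarboxylase genes summed to 164 on average with Put and to 215 with CK. These sums were between 35.3 and 39.9 times the FPKM of LOC107888839 alone with Put and between 40.4 and 52.6 times with CK. The ratios leave out the pseudogene LOC107926736, at 43.7 FPKM with Put and 46.9 FPKM with CK. They therefore hold for LOC107888839 only and do not compare the routes as a whole. Within the arginine route, RNA of the first enzyme was thus mostly lower with Put, while RNA of agmatine deiminase was higher in the sum of its copies. LOC107893794 has a length of 2983 bp, against 1618 and 1545 bp for the agmatine deiminase genes. With offsets that follow gene length, the log2 fold change of the agmatine deiminase sum was 0.57 (adjusted p = 1.30e-13, edgeR), against 0.59 without them. Arginine decarboxylase genes were not read with these offsets, so the part of gene length in the contrast as a whole was not tested.

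The genes around ornithine and arginine were called in both directions. Of 15 tested genes of ornithine synthesis, 2 were higher and 2 lower, with the largest change in LOC107894692, an N-acetyl-gamma-glutamyl-phosphate reductase on A13, at 0.30. Of 6 genes that turn ornithine into arginine, 2 were lower, with -0.25 for the argininosuccinate synthase LOC107941042 on A07. The arginase gene, whose enzyme releases ornithine from arginine, was not called at -0.06. Both genes for ornithine aminotransferase, which takes ornithine toward glutamate and proline, were lower, at -0.25 each.

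Downstream of putrescine, 1 of 8 tested genes for spermidine, spermine and thermospermine synthases was called, LOC107901009 on D06, described as thermospermine synthase ACAULIS5, at 0.30 (adjusted p = 0.0478, edgeR). Of 14 genes for S-adenosylmethionine synthase, which makes the precursor of the aminopropyl donor, 8 were higher and 1 lower, with LOC107931243 on A04 at 1.01, whereas of 7 genes for S-adenosylmethionine decarboxylase 1 was higher and 3 lower, with LOC107893852 on A13 at -0.45. Log2 fold changes of the S-adenosylmethionine synthase genes reached 3.59, in a gene outside the naming rule of a called gene at a mean of at least 5 CPM. The FPKM of the S-adenosylmethionine synthase genes summed to 760.2 ± 13.8 with Put and 755.8 ± 2.91 with CK. The lower gene, LOC107922739 on A12, was the most abundant of them, at 225.6 FPKM with Put and 271.9 FPKM with CK, and is named after its values were seen. Of 6 copper amine oxidase genes, whose enzymes oxidize putrescine, 3 were higher and 2 lower, with LOC107927763 on D02 at 0.90. The lower ones, named after their values were seen, had larger changes, at -1.70 for LOC107895118 on A08 (2.32 CPM with Put and 7.53 CPM with CK) and -1.82 for LOC107963669 on A03 (0.266 CPM with Put and 0.946 CPM with CK). Of 11 polyamine oxidase genes 2 were lower and 0 higher, and of 9 probable polyamine transporter genes 2 were higher and 4 lower, with LOC107907531 on A05 at 0.70. Also named after its values were seen, the transporter gene LOC107914133 on D08 had the largest change of the group, at -1.75 (0.767 CPM with Put and 2.57 CPM with CK). The single tested acyltransferase gene for agmatine or polyamines was not called at -0.70.

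**Figure D5:**
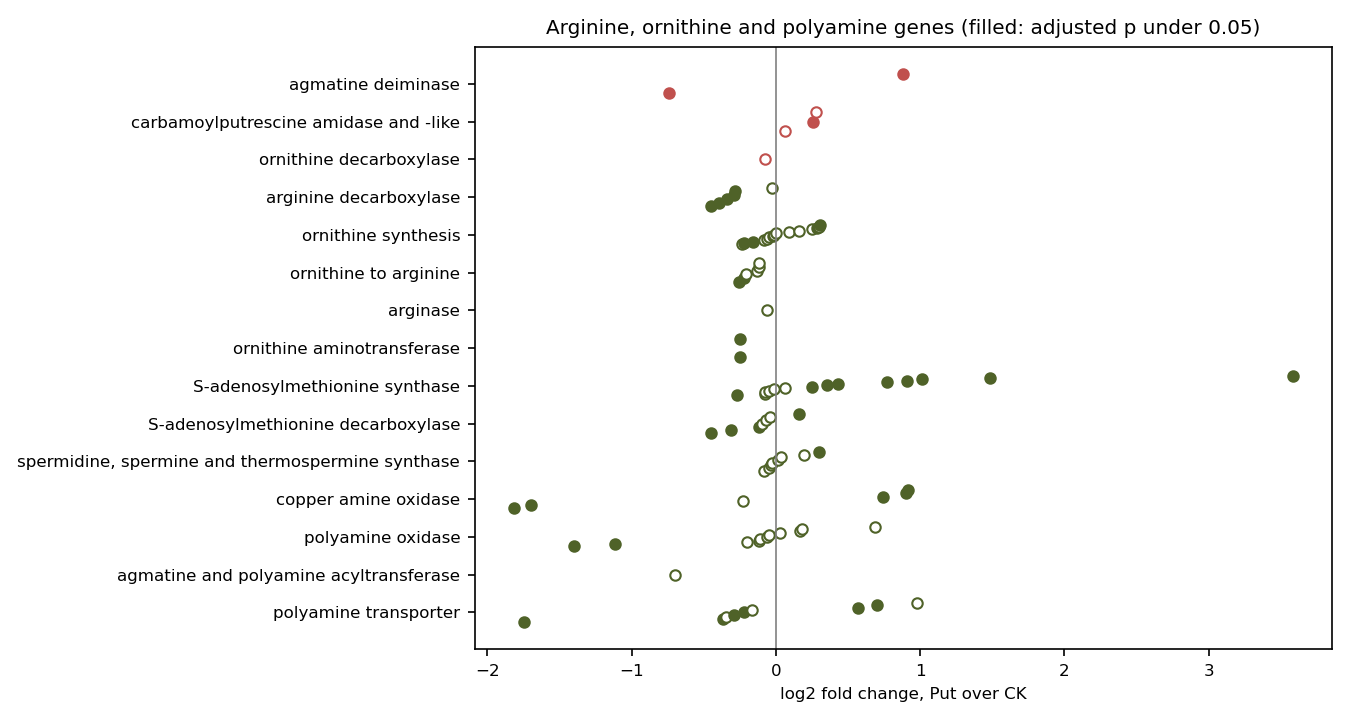
Log2 fold change of Put over CK for the tested genes of each enzyme or transporter group, with the agmatine deiminase, N-carbamoylputrescine amidase (with the amidase-like gene) and ornithine decarboxylase genes in red and the other groups in green, filled at an adjusted p under 0.05. The arginine decarboxylase genes lay between -0.45 and -0.03, and the S-adenosylmethionine synthase genes between -0.27 and 3.59.

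For each of the 6 genes, the tested gene with the most similar pattern was found as the smallest root mean square difference of centred log2 CPM over the 6 samples. The nearest to LOC107953355 was LOC107951058 on A02, described as dihydroceramide fatty acyl 2-hydroxylase FAH1, at a difference of 0.027, with 30.1 CPM with Put and 16.0 CPM with CK. The nearest to LOC107926587 was a locus without a name that the authors added, with a reverse transcriptase-like domain, at 0.049, and the nearest to LOC107939462 was LOC107891501 on D09, a subunit of NADH dehydrogenase, at 0.020. For LOC107889178, LOC107891527 and LOC107888839 the nearest genes have no described function. Within a difference of 0.1 lay 65 genes for LOC107926587 and 271 for LOC107953355, but between 1428 and 4982 genes for the other 4, whose patterns across the samples were therefore common ones.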

How the data were processed

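For 3 Put and 3 CK samples the authors deposited FPKM and raw counts per gene, and all sample columns were used. HISAT2 2.0.5 is named in the submitters' processing notes, and Gossypium_hirsutum_v2.1 in the study's methods. The program that counted the reads, its use of strand and its treatment of reads matching both homeologs are not given in the sources used here. Of 100562 identifiers, 99451 were found in the RefSeq gene table of that assembly, and loci added by the authors held 0.726% of counts.

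In R 4.3.3, edgeR 4.0.16 was fitted to the counts (filterByExpr, TMM, quasi-likelihood, adjusted p under 0.05). Standard errors are the log2 fold change divided by the square root of the F statistic. Alternatives were DESeq2 1.42.0, other scalings and filters, and limma 3.58.1 for genes averaging 0.5 FPKM or more, log2-transformed after adding 1 or 0.1. The fits were also run on simulated counts with the same dispersion for all genes and few changed genes, unlike these data. That run checked only whether the edgeR and DESeq2 fits returned the changes put in, and it lends no support to the results. The floor for detection was 3 counts, which is between 0.154 and 0.177 CPM on the total counts of a library.

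The 6 genes and the gene groups were chosen with earlier results of these data known. Besides the 6, the text names the gene nearest in pattern to each, and in each group the called gene with the largest absolute log2 fold change at a mean of at least 5 CPM. The neighbours, the FLX-like 2 genes and the other ornithine decarboxylase loci were chosen after values were seen. Pollen markers (16 genes) summed to between 44.3 and 47.7 CPM with Put and to between 44.2 and 45.3 CPM with CK. Sequences were not used here.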

Additional observations from a re-analysis of the deposited data

How the results depend on the processing

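The calls of both agmatine deiminase genes and of their sum held without TMM, with the size factors or the test of DESeq2, other filters on low counts, limma on FPKM, offsets that follow gene length, the replicate block and each replicate left out, with log2 fold changes of the sum from 0.56 to 0.60, and from 0.55 to 0.63 without a replicate. The N-carbamoylputrescine amidase sum, at 0.18, was not called with DESeq2's test (0.18), library size without TMM (0.16), limma on log2(FPKM + 0.1) (0.17) or log2(FPKM + 1) (0.16), offsets that follow gene length (0.11) or the replicate block (0.18), and ranged from 0.10 to 0.23 without a replicate. The number of the 6 genes higher with Put was 1 with DESeq2's test, with offsets that follow gene length or at an adjusted p under 0.01, and 1 or 2 without a replicate. Of the other pathway genes, 23 were lower in the main edgeR fit and 28 without TMM. With DESeq2's test or offsets that follow gene length 20 were lower, and with limma 18. Those higher, 17 in the main edgeR fit, numbered 16 in each of these settings. Without a replicate, 18 to 22 were lower and 15 to 17 higher. Changed genes in all also varied, from 16117 with DESeq2's test to 19231 without TMM. When a log2 fold change of 1 or more in either direction was also required, 2974 genes changed in all, 0 of the 6 were higher and 0 lower, and 3 other genes of the pathway were higher and 5 lower. LOC107891527 turned to -0.0055 with offsets that follow gene length, and LOC107888839 to 0.035 without CK replicate 2, in a range of -0.15 to 0.04 over the replicates left out. Ratios between enzymes and copy shares kept their direction with each replicate left out, but the log2 ratio of N-carbamoylputrescine amidase to ornithine decarboxylase ranged from 0.12 (without CK replicate 2) to 0.33, around a difference of 0.24.

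The replicate block gave 18661 changed genes, against 18936 without it. Deviations of same-numbered samples correlated at -0.0050, -0.0085 and -0.013. Counting noise makes up much of these deviations, so the correlations cannot show whether such samples share more than a number. No source says that they belong together. The 95% confidence intervals of LOC107939462 (-0.03 to 0.59) and LOC107888839 (-0.34 to 0.20), with 83 to 153 counts per sample, both included 0. Changes within these intervals remain compatible with the data.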
